A study of Mus musculus with 55 samples.

Results

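Libraries labelled as CD8 T cells of early metastatic bone marrow were set against libraries labelled as CD4 T helper cells at the same stage. They were 8 of the 55 libraries of the series, 4 titled CD8 and 4 titled CD4, at the stage the titles call Premet. Both groups also held markers of neutrophils and dendritic cells, given below. The libraries were chosen by title alone. The 4 groups used were CD8 early and CD4 early, cells sorted from the marrow of mice at the early stage of metastasis to bone, and CD8 normal and CD4 normal, the same populations from marrow labelled normal, with 4 libraries each. The labels give neither strain nor age nor genotype, and name no treatment beyond the stage. RNA was read by MARS-seq, which tags transcripts near their 3′ end and amplifies them in pools, and levels are given as CPM, the reads of a gene in 1000000 reads of its library, with reads recovered from the deposited values. The labels do not say whether 2 libraries of a group came from separate animals, so every p-value measures library-to-library spread only, which may be in part technical.

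CD4 and CD8 are the co-receptors that bind MHC class II and MHC class I beside the T cell receptor. In the thymus ZBTB7B (ThPOK) directs cells to the CD4 helper fate and RUNX3 to the CD8 cytotoxic fate, and mature CD8 cells that have met antigen make granule proteins and the chemokine CCL5. In mice some dendritic cells also carry CD4 or CD8 alpha, and plasmacytoid dendritic cells, which make type I interferon, depend on the transcription factors IRF8 and SPIB. Marrow holds both kinds of T cell, many of them memory cells, beside developing myeloid cells.

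The promoters are shown because they belong to 3 genes the results turn on: CD8A, which separated CD8 from CD4 libraries at both stages, and SPIB and KLK1, whose difference between CD8 and CD4 libraries was not the same in early and in normal marrow. Each sequence is the 250 bases before the gene's start in GRCm38.p6, read 5′ to 3′ on the gene's own strand from RefSeq. Capitals mark GAGGAA, a core motif of PU.1 and SPIB, or its reverse complement.
CD8A (chr6:71373177-71373426, plus strand): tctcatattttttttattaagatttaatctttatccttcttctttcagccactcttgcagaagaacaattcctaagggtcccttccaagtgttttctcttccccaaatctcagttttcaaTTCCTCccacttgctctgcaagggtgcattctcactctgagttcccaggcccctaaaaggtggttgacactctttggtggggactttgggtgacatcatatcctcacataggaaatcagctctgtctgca
SPIB (chr7:44532072-44532321, minus strand): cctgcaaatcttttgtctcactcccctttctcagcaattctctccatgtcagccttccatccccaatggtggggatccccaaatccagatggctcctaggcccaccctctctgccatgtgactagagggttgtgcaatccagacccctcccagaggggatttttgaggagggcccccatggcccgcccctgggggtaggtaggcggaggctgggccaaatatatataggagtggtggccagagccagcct
KLK1 (chr7:44225110-44225359, plus strand): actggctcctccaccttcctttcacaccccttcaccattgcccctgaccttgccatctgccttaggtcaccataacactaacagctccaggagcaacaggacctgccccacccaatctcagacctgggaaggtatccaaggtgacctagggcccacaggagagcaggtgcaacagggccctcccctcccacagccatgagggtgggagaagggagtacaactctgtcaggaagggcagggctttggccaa
The CD8A stretch held 1 such motif and the other 2 held none. Among the 3444 tested genes with such a stretch, GAGGAA was found on either strand in 22.6%, and TGTGGT, a core motif of RUNX proteins, in 9.99%.

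Depth and purity bear on all that follows. CD8 early libraries held 43224 to 144170 recovered reads and CD4 early libraries 68263 to 350976, against 191341 to 485133 in CD8 normal and 178251 to 452849 in CD4 normal libraries. The label of T cells was checked with CD3E, part of the complex that signals for the T cell receptor, which had reads in 7 of the 8 early libraries. It stood at 187, 92.1, 91.2 and 0 CPM in CD8 early libraries and at 146, 59.2, 193 and 68.4 CPM in CD4 early libraries. The 0 belongs to the shallowest library, number 4, in which 3 reads would be 69.4 CPM. CD40LG, the helper ligand that defines activated CD4 cells, had 0 reads in all 8 early libraries, which allows up to 7.82 CPM over the CD8 early and 4.56 CPM over the CD4 early group. Transcripts of lung were high, with deposited values of 6 lung markers summing to over 300, in 6 of the 16 libraries: CD4 early 4, CD8 normal 2 and 4, and CD4 normal 1, 3 and 4. In the other 10 libraries that sum was 33.4 to 82.4. In bulk RNA, fewer cells of a type and less RNA per cell cannot be told apart.

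Which genes distinguish CD8 from CD4 libraries in early metastatic marrow was the first question. CCL5 and CD8A were higher in CD8 early than in CD4 early libraries, and they were the only 2 of 4238 tested genes to pass (limma, adjusted p under 0.05), 0.0472% of those tested. No gene was lower: 0 passed in that direction, where 258 genes had an unadjusted p under 0.05, against 155 higher. edgeR and limma-voom called the same number, 2 higher and 0 lower, and DESeq2 called 5 higher and 0 lower. The 3 genes that DESeq2 added, named after their values were seen, were the chemokine receptor CXCR4, the actin-binding calponin CNN2 and TMEM120A. TMEM120A stood at 132, 111, 285 and 116 CPM in CD8 early libraries and at 29.3, 44.4, 29 and 65.5 CPM in CD4 early libraries (1.60 ± 0.33, limma, adjusted p = 0.077). Nearest to passing in the other direction was SMIM19, also named after its values were seen, at 20.8, 27.6, 0 and 0 CPM in CD8 early and 58.6, 74, 67.7 and 59.8 CPM in CD4 early libraries (-1.72 ± 0.37, limma, adjusted p = 0.086), which overlaps Slc20a2.

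CCL5 (GRCm38 chromosome 11, 83525778 to 83530518, minus strand), the chemokine RANTES, stood at 1991, 1704, 1368 and 3378 CPM in CD8 early libraries and at 439, 303, 484 and 199 CPM in CD4 early libraries. The groups did not overlap. Its log2 difference was 2.54 ± 0.29 (SE, limma, adjusted p = 2.8e-05). CCL5 averaged 6.95 ± 7.84 CPM in early granulocytes (SD, n = 4). In normal marrow its log2 difference was 3.03 ± 0.29 (limma, adjusted p = 5.9e-07), and the 2 differences were not shown to differ, at -0.49 ± 0.41 for early minus normal (limma, adjusted p = 0.75).

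CD8A (chromosome 6, 71373427 to 71379173, plus strand), the co-receptor chain on which the CD8 cells were sorted, checks the labels and is no finding. It stood at 111, 92.1, 103 and 116 CPM in CD8 early libraries and at 29.3, 0, 29 and 5.7 CPM in CD4 early libraries. Its log2 difference was 2.13 ± 0.37 (limma, adjusted p = 0.012). It rests on few reads: it no longer passed without CD4 early library 2 (log2 difference 1.83) or without CD4 early library 4 (1.98). CD8A also failed in a fit of only the 8 early libraries, on log2(value + 1), and with a filter at a value of 30. With normal libraries thinned to the depth of the early ones it failed as well. CD4 itself, the other sort gene, did not pass. It stood at 83.2, 295, 182 and 23.1 CPM in CD8 early libraries and at 645, 237, 299.9 and 368 CPM in CD4 early libraries. CD8 early 2 lay above the lowest CD4 early library, so the groups overlapped, and the log2 difference of -1.58 ± 0.46 had an adjusted p of 0.29 (limma). Without CD8 early library 2 it passed, at -2.002 (limma, adjusted p = 0.042). In normal marrow the difference was -1.68 ± 0.46 and passed (limma, adjusted p = 0.037).

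**Figure D1:**
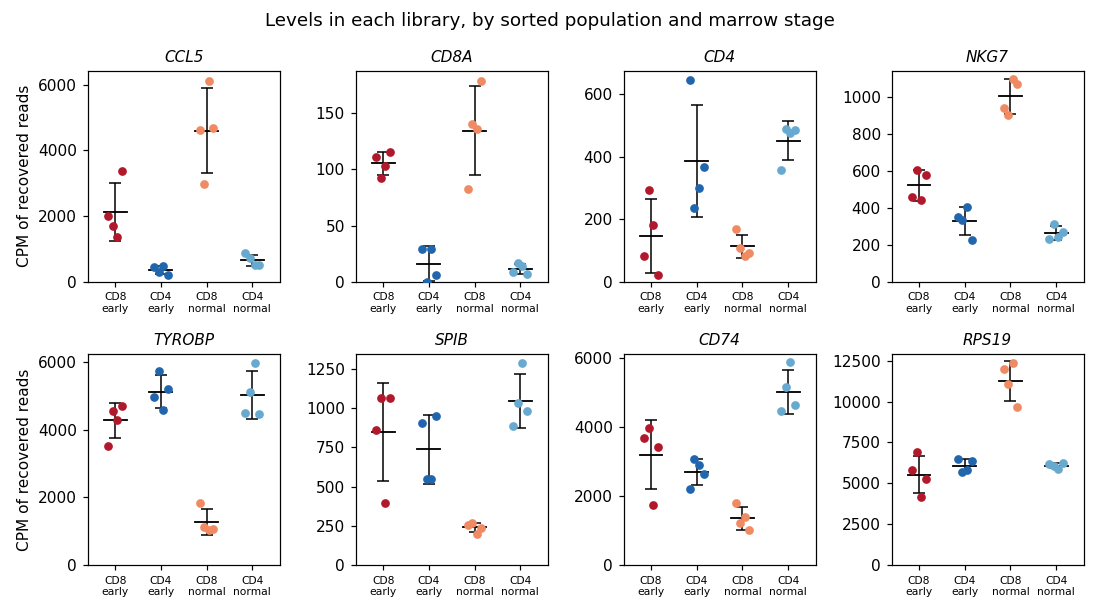
CPM of recovered reads for 8 genes, 1 point per library, with the mean and SD of the 4 libraries of each group as bars. CCL5 and CD8A separate CD8 from CD4 libraries at both stages, whereas NKG7, TYROBP, SPIB, CD74 and RPS19 lie closer together in CD8 early and CD4 early libraries than in CD8 normal and CD4 normal libraries.

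No other cytotoxic gene passed in early marrow. Of 21 cytotoxic and killer genes in the files, 9 reached the level needed to be tested. Among them 1, CCL5, passed in early marrow, against 6 of the 9 in normal marrow. The median log2 difference of the 9 was 0.46 in early and 1.56 in normal marrow, beside -0.06 and 0.02 over all tested genes. Of all tested genes 2.1% were called higher and 2.97% lower in normal marrow. The sum over the 21 genes was 2359 to 4835 CPM in CD8 early libraries and 1043 to 1479.6 CPM in CD4 early libraries, of which CCL5 was the greater part in every CD8 early library.

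NKG7 (chromosome 7, 43437073 to 43438249, plus strand), a membrane protein of cytotoxic granules, stood at 458, 608, 444 and 578 CPM in CD8 early libraries and at 352, 333, 406 and 228 CPM in CD4 early libraries. All 4 CD8 libraries lay above all 4 CD4 libraries, as was so for 1.16% of tested genes, but the log2 difference of 0.69 ± 0.21 did not pass (limma, adjusted p = 0.29). In normal marrow the levels were 942, 903, 1098 and 1072 CPM in CD8 libraries and 233, 314, 244 and 267 CPM in CD4 libraries, a log2 difference of 2.10 ± 0.21 (limma, adjusted p = 5.9e-07). The difference itself was smaller in early marrow, by -1.41 ± 0.30 on the log2 scale (limma, adjusted p = 0.013). Cathepsin W (CTSW), a protease of killer cells, followed the same course. It averaged 275 ± 37.2 CPM in CD8 early and 252 ± 93.6 CPM in CD4 early libraries, against 611 ± 82.9 CPM in CD8 normal and 239 ± 42.9 CPM in CD4 normal libraries (SD, n = 4 each). Its difference was lower in early marrow by -1.33 ± 0.33 (limma, adjusted p = 0.041). CTSW overlaps Fibp on the other strand, and no source used here says whether reads were counted by strand, so its reads are uncertain. The same holds for GRN, FLT3, CD3E, ZBTB7B, ZAP70 and KLK1, which also overlap a gene on the other strand. IRF8 overlaps a protein-coding gene on its own strand, and CD74, TMEM120A and RPS21 each overlap a microRNA gene on theirs.

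The granzymes, serine proteases that enter target cells, were thinly read. GZMB stood at 48.6, 55.3, 11.4 and 46.3 CPM in CD8 early libraries and at 0, 7.4, 19.3 and 17.1 CPM in CD4 early libraries, a log2 difference of 1.07 ± 0.46 (limma, adjusted p = 0.45). GZMM stood at 6.94, 36.8, 22.8 and 23.1 CPM in CD8 early libraries, against 0, 0, 9.67 and 0 CPM in CD4 early libraries, with 1.08 ± 0.44 (limma, adjusted p = 0.40). CD8 early 3 for GZMB and CD8 early 1 for GZMM lay within the range of the CD4 early libraries. GZMA and GZMK were too low to be tested. GZMA had 11 reads over the CD8 early and 1 read over the CD4 early libraries, and GZMK 6 and 1. Perforin (PRF1), the pore-forming protein, had 1 read over CD8 early and 4 over CD4 early libraries, and interferon gamma (IFNG) 5 and 9. No excess of either in CD8 early libraries was detectable at this depth. KLRD1, the CD94 chain of natural killer receptors, had a log2 difference of 0.39 ± 0.38 (limma, adjusted p = 0.78).

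No lineage regulator passed in early marrow. ZBTB7B stood at 62.4, 111, 376 and 46.3 CPM in CD8 early libraries and at 176, 163, 135 and 94 CPM in CD4 early libraries, a log2 difference of -0.28 ± 0.42 (limma, adjusted p = 0.86). Its highest value was in CD8 early 3, the library highest in neutrophil genes, and early granulocytes averaged 429 ± 121 CPM of ZBTB7B (SD, n = 4). The part of such cells in it was not tested. RUNX3 had a log2 difference of -0.09 and TBX21 (T-bet), the factor of effector and Th1 cells, one of -1.24 with 2 of 4 CD8 early libraries at 0. EOMES, the other effector factor, had 2 reads over CD8 early and 1 over CD4 early libraries. Among 9 tested effector and CD8 transcription factors 0 passed in early marrow (limma, 1 with an unadjusted p under 0.05, and 0 by edgeR, DESeq2 or limma-voom).

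Of the T cell receptor complex and adhesion genes, 9 of 11 were tested and 0 passed in early marrow (limma, 1 with an unadjusted p under 0.05, and 0 by the other 3 tools), with a median log2 difference of 0.06. In normal marrow 3 of the 9 were higher in CD8 libraries, with a median of 0.80. CD3D was the one nearest to passing in early marrow, at 444, 433, 490.1 and 509 CPM in CD8 libraries and 322, 185, 251 and 191 CPM in CD4 libraries, groups that did not overlap (log2 difference 1.00 ± 0.25, limma, adjusted p = 0.16). CD3D is an uncertain T cell marker here, because early granulocytes held 155 ± 39.4 CPM of it (SD, n = 4), while CD3E was at 0.654 ± 0.799 CPM in them. CD3G averaged 100.3 ± 44.3 CPM in CD8 early and 110.2 ± 32.4 CPM in CD4 early libraries, against 332 ± 75.3 CPM in CD8 normal and 155 ± 36.4 CPM in CD4 normal libraries, and its change between stages did not pass (-1.40 ± 0.42, limma, adjusted p = 0.095).

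Downstream of the receptor, 12 proximal signalling genes were tested, CD8A among them, and CD8A alone passed in early marrow. The median over the 12 was 0.00 in early and 1.03 in normal marrow. ZAP70, the kinase recruited to the activated receptor, stood at 118, 82.9, 79.8 and 92.5 CPM in CD8 early libraries and at 132, 311, 213 and 142 CPM in CD4 early libraries. Here the CD8 libraries were all below the CD4 libraries, as were those of 1.75% of tested genes. In normal marrow the order was the other way round, with 286, 289, 402 and 278 CPM in CD8 libraries and 204, 202, 178 and 168 CPM in CD4 libraries. The ZAP70 difference was -0.89 ± 0.27 in early marrow (limma, adjusted p = 0.29) and 0.91 ± 0.27 in normal marrow (limma, adjusted p = 0.045). Its change between the stages passed, at -1.80 ± 0.38 (limma, adjusted p = 0.013).

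Naive and central memory genes mark cells that recirculate through lymphoid tissue. Of 13 tested, 0 passed in early marrow (limma, 2 with an unadjusted p under 0.05, and 0 by the other 3 tools), against 5 that were higher in CD8 libraries of normal marrow, and the change between stages passed for 1 of the 13, DAPL1. Their median log2 difference was 0.12 in early and 1.09 in normal marrow. CCR7, the receptor that guides T cells to lymph nodes, averaged 106 ± 61.2 CPM in CD8 early and 113 ± 78.4 CPM in CD4 early libraries, against 406 ± 111 CPM in CD8 normal and 109 ± 9.4 CPM in CD4 normal libraries. The change in CCR7 between stages did not pass (-2.01 ± 0.61, limma, adjusted p = 0.11). DAPL1 showed the steepest contrast, with 20.8, 55.3, 34.2 and 0 CPM in CD8 early libraries and 14.6, 0, 19.3 and 8.55 CPM in CD4 early libraries. In CD8 normal libraries it stood at 184, 336, 267 and 329 CPM, and in CD4 normal libraries at 12.5, 22.4, 27.8 and 17.7 CPM. The difference in DAPL1 was lower in early marrow by -2.66 ± 0.59 (limma, adjusted p = 0.019). TCF7 and IL7R had log2 differences of 0.53 and -1.10 in early marrow, and neither passed.

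No effector memory gene or homing receptor passed by limma in early marrow. Of 14 effector memory genes 0 passed in early marrow (limma, 3 with an unadjusted p under 0.05, and 0 by the other 3 tools). Of 15 homing receptors and integrins 0 passed (limma, 3 with an unadjusted p under 0.05), and 1 did by DESeq2. That one, CXCR4, the receptor for the marrow chemokine CXCL12, stood at 187, 119.7, 182 and 69.4 CPM in CD8 early libraries and at 29.3, 59.2, 67.7 and 37 CPM in CD4 early libraries, which did not overlap. Its log2 difference was 1.28 ± 0.31 (limma, adjusted p = 0.14), and 0.11 ± 0.31 in normal marrow. The annexins ANXA1 and ANXA2 had log2 differences of 1.06 and 0.91 in early marrow, and early granulocytes averaged 3394 ± 1679 CPM of ANXA1 and 2946 ± 806 CPM of ANXA2. ANXA2 was highest in CD8 early 3, the library highest in neutrophil genes, at 1618 CPM, against 416 to 548 CPM in the other CD8 early libraries and 261 to 425 CPM in CD4 early libraries. The part of neutrophils was not tested.

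Genes known from CD4 cells did not pass. Of the 4 tested regulatory T cell genes 0 passed in early marrow (limma, 2 with an unadjusted p under 0.05, and 0 by the other 3 tools), with a median log2 difference of -0.77, against -1.24 in normal marrow, where 2 were lower in CD8 libraries. IZUMO1R (folate receptor 4), a surface protein of regulatory and anergic CD4 cells, stood at 20.8, 82.9, 79.8 and 0 CPM in CD8 early libraries and at 132, 81.4, 164 and 145 CPM in CD4 early libraries. The lowest CD4 library lay under the highest CD8 library (-1.56 ± 0.44, limma, adjusted p = 0.27). TNFRSF4 (OX40), a costimulatory receptor, had -1.06 ± 0.45 (limma, adjusted p = 0.43). FOXP3, the regulatory T cell factor, had 4 reads over CD8 early and 11 over CD4 early libraries, and IL2RA, which encodes CD25, 3 and 7. ICOS, another costimulatory receptor, had 4 and 6 reads, and CD226 0 and 1. Of 17 helper lineage genes 3 were tested and 0 passed in early marrow (limma, 0 with an unadjusted p under 0.05, and 0 by the other 3 tools).

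Of 10 inhibitory receptors in the files, LAG3 alone reached the level needed to be tested. It stood at 153, 332, 45.6 and 231 CPM in CD8 early libraries and at 176, 104, 203 and 174 CPM in CD4 early libraries, a log2 difference of 0.00 ± 0.37 (limma, adjusted p = 1). In normal marrow LAG3 was lower in CD8 libraries, with 54 ± 7.53 CPM against 179 ± 40.5 CPM in CD4 libraries (log2 difference -1.28, limma, adjusted p = 0.039), but the change between stages did not pass (1.28 ± 0.52, limma, adjusted p = 0.29). PDCD1 (PD-1) had 3 reads over CD8 early and 7 over CD4 early libraries, CTLA4 6 and 7, TIGIT 0 and 4, and HAVCR2 (TIM-3) 2 and 3. TIGIT at 0 reads allows up to 7.82 CPM over the CD8 early group, so that no difference in these 4 receptors was detectable at this depth.

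No activation, cell cycle or interferon gene passed. In early marrow 0 of 16 immediate early and stress genes passed (limma, 1 with an unadjusted p under 0.05), as did 0 of 11 proliferation genes and 0 of 3 type I interferon genes (limma, 0 with an unadjusted p under 0.05), and edgeR, DESeq2 and limma-voom called 0 of the 3 lists. Their median log2 differences were -0.45, -0.05 and -0.28. The immediate early and stress genes summed to 1630 to 2838 CPM in CD8 early and 1576 to 2241 CPM in 3 CD4 early libraries, with 7018 CPM in CD4 early 4, the library high in lung transcripts, whose part in the median was not tested. IRF7, the factor that drives interferon production, averaged 315 ± 121 CPM in CD8 early and 390.1 ± 134 CPM in CD4 early libraries, against 173 ± 41.8 CPM in CD8 normal and 545 ± 155 CPM in CD4 normal libraries, and its change between stages did not pass (1.06 ± 0.39, limma, adjusted p = 0.23). MHC class I presentation genes gave 0 of 9 (limma, 2 with an unadjusted p under 0.05, and 0 by the other 3 tools) with a median of -0.07.

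Whether the split between CD8 and CD4 libraries is itself different in early marrow was asked next. The same contrast in normal marrow and the difference of the 2 contrasts were used. In normal marrow 215 genes passed (5.07%), 89 higher and 126 lower in CD8 libraries. Of these 215 genes, 120 had the same sign in early marrow and 2 passed there. The 89 genes that were higher in CD8 normal libraries had a median log2 difference of -0.08 in early and 1.01 in normal marrow. For the 126 lower ones it was -0.12 in early and -1.32 in normal marrow. CD8 and CD4 libraries did not overlap for 2.9% of tested genes in early and 15.5% in normal marrow, where CD8 libraries were all above for 7.01% and all below for 8.47%.

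The difference of the contrasts passed for 61 genes (1.44%), 35 higher (0.826%) and 26 lower (0.613%) in early than in normal marrow. All but 3 of the 61 also passed in normal marrow: 34 of the 35 were lower in CD8 than in CD4 normal libraries, and 24 of the 26 were higher. Over both groups of genes the medians were apart in the CD8 libraries. For the 35 genes the median log2 difference between early and normal libraries was 1.31 in CD8 and -0.18 in CD4 libraries. For the 26 genes it was -1.22 in CD8 and 0.04 in CD4 libraries. These 4 medians describe genes chosen by the same contrast and are given without a test. Both contrasts are plotted against each other for all tested genes.

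**Figure D2:**
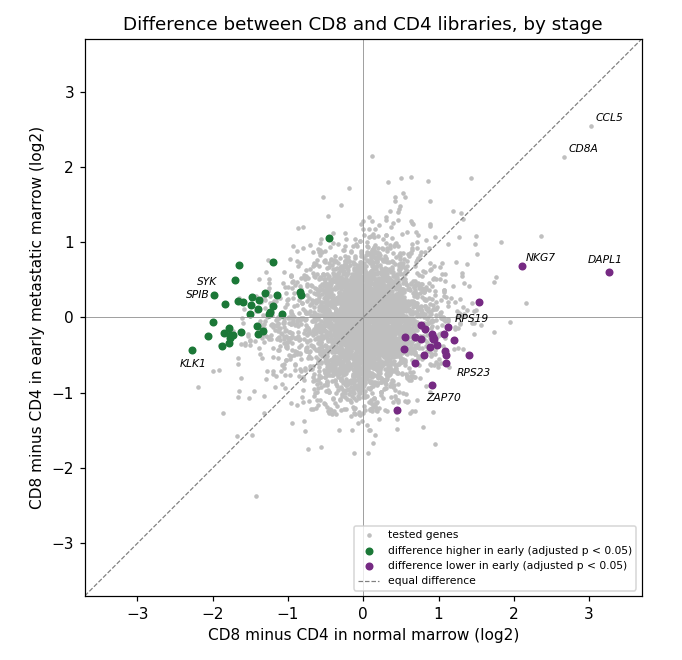
Log2 difference between CD8 and CD4 libraries for the 4238 tested genes, in normal marrow on the horizontal axis and in early metastatic marrow on the vertical axis. The 35 genes in green and the 26 in purple, whose difference was higher or lower in early marrow, lie mostly nearer to 0 on the vertical than on the horizontal axis, while CCL5 and CD8A lie near the dashed line of equal difference.

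Of 5 tested plasmacytoid dendritic cell markers 2, SPIB and IRF8, were among the 35 genes, and of 3 tested dendritic cell markers 1, FLT3. The medians of these lists were -0.01 and 0.11 in early and -1.05 and -1.01 in normal marrow. TYROBP (DAP12; chromosome 7, 30413760 to 30417585, plus strand), the adaptor of activating receptors on myeloid and natural killer cells, stood at 3537, 4568, 4297 and 4719.6 CPM in CD8 early libraries and at 4966, 5749, 4595 and 5199.8 CPM in CD4 early libraries. In CD8 normal libraries it stood at 1834, 1136, 1035 and 1074 CPM, and in CD4 normal libraries at 4512, 5128, 5991 and 4465 CPM. Only the CD8 normal libraries were low. The difference rose by 1.54 ± 0.26 on the log2 scale in early marrow (limma, adjusted p = 0.0039), and early granulocytes averaged 6357 ± 397 CPM (SD, n = 4), so that TYROBP alone does not tell myeloid types apart.

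SPIB (chromosome 7, 44525993 to 44532071, minus strand), the Ets factor of plasmacytoid dendritic cells and B cells whose promoter is printed above, stood at 860.1, 1068, 399 and 1064 CPM in CD8 early libraries and at 908, 548, 551 and 952 CPM in CD4 early libraries. Its levels were 258, 266, 199 and 237 CPM in CD8 normal libraries, against 889, 1032, 1292 and 985 CPM in CD4 normal libraries. Its difference rose by 2.01 ± 0.36 (limma, adjusted p = 0.0045). Early granulocytes averaged 2.96 ± 0.294 CPM of SPIB. IRF8, which dendritic cells need to develop, stood at 3295, 3444, 1596 and 2545 CPM in CD8 early libraries and at 3501, 3263, 2631 and 3202 CPM in CD4 early libraries. The CD8 normal libraries held 465 to 821 CPM and the CD4 normal libraries 2285 to 3081 CPM of IRF8, and its difference rose by 1.501 ± 0.30 (limma, adjusted p = 0.0089).

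CD74, the invariant chain that guides MHC class II to endosomes, stood at 3676, 3987, 1732 and 3424 CPM in CD8 early libraries and at 2212, 3085, 2892 and 2638 CPM in CD4 early libraries, against 1356 ± 327 CPM in CD8 normal and 5037 ± 639 CPM in CD4 normal libraries. Its difference rose by 1.89 ± 0.31 (limma, adjusted p = 0.0039). KLK1, a tissue kallikrein, averaged 1345 ± 493 CPM in CD8 early and 1764 ± 310.5 CPM in CD4 early libraries, against 474 ± 148 CPM in CD8 normal and 2656 ± 226 CPM in CD4 normal libraries, and its difference rose by 1.84 ± 0.35 (limma, adjusted p = 0.0078). SYK, the kinase of B cell and myeloid receptors that is the counterpart of ZAP70, averaged 268 ± 72.5 CPM in CD8 early and 189 ± 41.5 CPM in CD4 early libraries, against 47.1 ± 15.1 CPM in CD8 normal and 214 ± 45.2 CPM in CD4 normal libraries. Its difference rose by 2.21 ± 0.39 (limma, adjusted p = 0.0045). The difference of the growth factor progranulin (GRN) rose by 1.34 ± 0.25 (limma, adjusted p = 0.0063), and that of FLT3, a growth factor receptor of dendritic cells, by 1.51 ± 0.39 (limma, adjusted p = 0.046). Further members of the 35, named after their values were seen, were UNC93B1, which carries nucleic acid sensing Toll-like receptors to endosomes (1.302 ± 0.30), the interferon regulatory factor IRF5 (1.80 ± 0.45) and CSF2RB, the shared beta chain of the GM-CSF and IL-3 receptors (1.93 ± 0.50), with adjusted p-values of 0.025, 0.045 and 0.049 (limma).

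The lower group was made up in the main of ribosomal protein genes, the protein parts of the ribosome. Of the 26 genes 19 were ribosomal protein genes by name, a list added after the values were seen. Of 70 tested ribosomal protein genes 0 passed in early marrow (limma, 10 with an unadjusted p under 0.05, and 0 by edgeR, DESeq2 or limma-voom), against 44 that were higher in CD8 libraries of normal marrow. Their median log2 difference was -0.20 in early and 0.76 in normal marrow. RPS19, of the small subunit, stood at 5806, 6897, 4159.9 and 5252 CPM in CD8 early libraries and at 6489.6, 5675, 5794 and 6354 CPM in CD4 early libraries. It stood at 11984, 11098, 12381 and 9639.8 CPM in CD8 normal libraries and at 6186, 6036, 5901 and 6214 CPM in CD4 normal libraries, so that the CD8 normal libraries alone stood apart. The RPS19 difference fell by 1.24 on the log2 scale (SE 0.21, limma, adjusted p = 0.0039). Those of RPS23, RPL12, RPS21 and RPL32 fell by 1.70, 1.23, 1.18 and 1.27, and that of RPL9 changed by -1.504. Ribosomal protein genes have many near-identical copies in the genome, and RPL12 and RPL32 overlap other genes, so single values are uncertain. The summed share of these genes was 164972 to 247645 CPM in CD8 early libraries and 233362 to 287464 CPM in CD4 early libraries, against 355686 to 392901 CPM in CD8 normal and 262489 to 271466 CPM in CD4 normal libraries. Being a share of a total, it moves with every other gene.

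**Figure D3:**
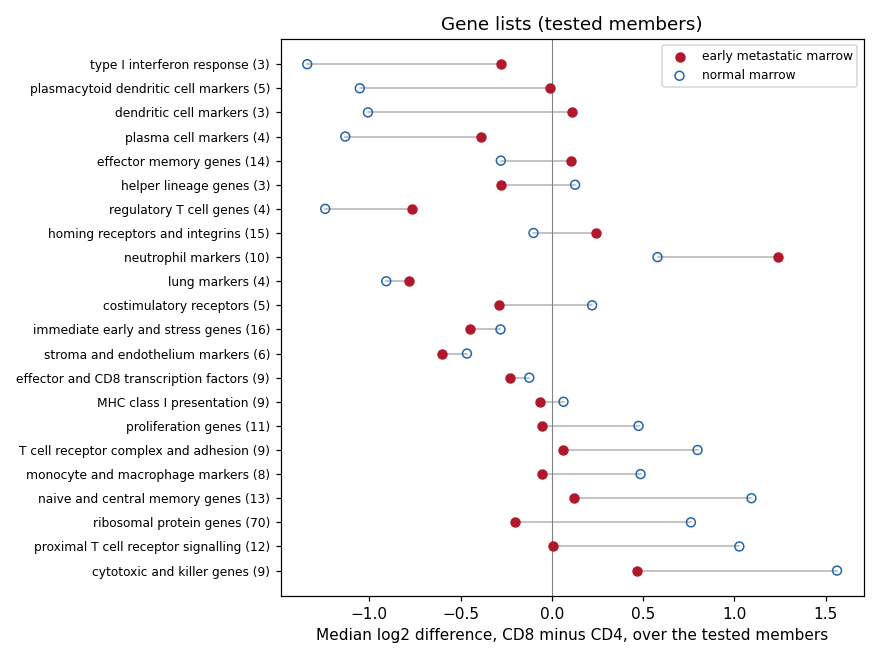
Median log2 difference between CD8 and CD4 libraries over the tested members of each list (number in brackets), with early metastatic marrow as filled and normal marrow as open circles. For cytotoxic, T cell receptor, naive and ribosomal protein genes the early median lies left of the normal one and nearer to 0, and for plasmacytoid dendritic cell and dendritic cell markers it lies right of the normal one and nearer to 0.

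Marker sums of other cell types moved with these differences, and some of the sums hold genes called above. The plasmacytoid sum holds SPIB and IRF8 and the dendritic cell sum holds FLT3, all among the 35 genes. The 7 plasmacytoid dendritic cell markers in the files, none of them at 0 in all 8 early libraries, summed to 5819.5, 6152, 2439 and 5576 CPM in CD8 early libraries and to 5772, 5534, 3966 and 5168 CPM in CD4 early libraries. In CD8 normal libraries the sum was 852 to 1433 CPM and in CD4 normal libraries 3706 to 4853 CPM. The 7 dendritic cell markers, of which XCR1 was at 0 in the 8 early libraries, summed to 444 to 648 CPM in CD8 early and 377 to 864 CPM in CD4 early libraries, against 105 to 128 CPM in CD8 normal and 376 to 407 CPM in CD4 normal libraries. The 10 T cell markers, of which TRAT1 was at 0 in the 8 early libraries, summed to 2499 to 3306 CPM in CD8 early and 1792 to 3838 CPM in CD4 early libraries, against 4921 to 6120.0 CPM in CD8 normal and 2937 to 3927 CPM in CD4 normal libraries. All 4 CD8 early libraries lay above all 4 CD8 normal libraries in both dendritic cell sums and below them in the T cell sum. The natural killer, plasma cell and progenitor marker sums were higher in CD8 early libraries too, at 4065 to 5529, 578 to 992 and 251 to 440 CPM. In CD8 normal libraries these sums were 1167 to 2189, 339 to 557 and 57.5 to 165 CPM. TYROBP, of the 35 genes, and FCER1G made up nearly all of the natural killer sum. FCER1G stood at 513, 414, 650 and 810 CPM in CD8 early libraries, and early granulocytes averaged 1725 ± 196 CPM of it. FLT3, at 354, 359, 239 and 416 CPM, made up most of the progenitor sum in CD8 early libraries. CD34, also in that sum, stood at 6.94, 0, 0 and 0 CPM in CD8 early libraries. In CD8 normal libraries CD34 stood at 8.24, 76.3, 5.23 and 41.8 CPM, where numbers 2 and 4 were high in lung transcripts. For the plasmacytoid markers CD8 early 3 lay below every CD4 library of either stage. The part of these cell types in the differences above was not tested.

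The 13 neutrophil markers summed to 29091, 19191, 117766 and 32759.6 CPM in CD8 early libraries and to 17403, 28086, 18040.2 and 10608 CPM in CD4 early libraries. In CD8 normal libraries the sum was 3987 to 22772 CPM and in CD4 normal libraries 6795 to 10188 CPM, below every CD4 early library. CD8 early 3 stood far above the rest. Of the 10 that were tested 0 passed in early marrow (limma, 1 with an unadjusted p under 0.05, and 0 by the other 3 tools), with a median log2 difference of 1.24. The 11 monocyte and macrophage markers summed to 980.1 to 6432 CPM in CD8 early and 1519 to 6933 CPM in CD4 early libraries. The 6 lung markers summed to 137 to 301 CPM in CD8 early libraries and to 132 to 289 CPM in 3 CD4 early libraries, with 4277 CPM in CD4 early 4.

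**Figure D4:**
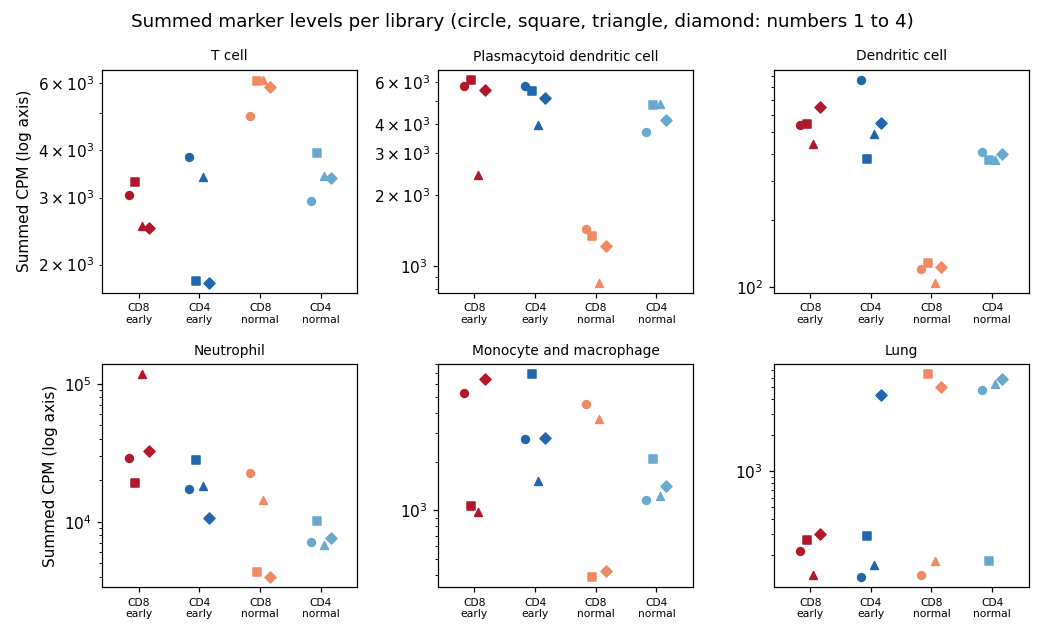
Summed CPM of recovered reads of the markers of 6 cell types in each library, on log axes, with the symbol giving the library's number. Plasmacytoid dendritic cell and dendritic cell markers are lowest in the 4 CD8 normal libraries, neutrophil markers peak in CD8 early 3 at 117766 CPM, and lung markers are high in 6 libraries.

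With CD8 early libraries 3 and 4 left out, 2 genes passed in early marrow, CCL5 and, lower in CD8 libraries, the creatine kinase CKB (named after its values were seen), while CD8A did not (adjusted p = 0.11, limma), and 84 genes passed for the change between stages, 52 of them among the 61. With high or low lung transcripts as a term in the fit, 2, 202 and 78 genes passed in early marrow, in normal marrow and for the change, and all 61 were among the 78. Leaving out the 6 libraries with high lung transcripts kept 1 CD4 normal library, whose spread was assumed to be that of the other groups. Then 1 gene passed in early marrow, 3 in normal marrow and 0 for the change (limma, 180 with an unadjusted p under 0.05), and the changes of TYROBP, SPIB and RPS19 were 1.40, 2.17 and -1.38 without passing (limma, adjusted p = 0.72, 0.64 and 0.64). With normal libraries thinned to the depth of the early ones, 1, 189 and 51 genes passed, and 43 of the 51 were among the 61. All 27 CD4 and CD8 libraries of all stages in 1 fit gave 7, 64 and 0 genes (limma, 524 with an unadjusted p under 0.05 for the change).

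The same 2 core motifs were counted in the promoters of the genes whose difference changed between stages. GAGGAA was found in 8 of 24 stretches (33.3%) of the 35 higher genes and in 8 of 23 (34.8%) of the 26 lower genes, beside the 22.6% of tested genes given above. TGTGGT was found in 0 of 24 and in 2 of 23 (8.70%), beside 9.99%. These are counts of letters in short stretches, made without a test.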

How the data were processed

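Libraries were made by MARS-seq from sorted marrow cells. Reads were processed with fastp 0.20.0, STAR 2.6.0c and DESeq2 1.30.1 on GRCm38 (mm10), per the submitters' processing notes. Nothing in the sources used here tells how genes and molecular tags were counted. The authors deposited a signal per gene, which is whole reads over a factor that is constant within a library: 100% of values in every library used are whole within 0.01 of a read after division by the value of 1 read. Each file holds 15734 features, of which 5 have no symbol and at most 0.00925% of a library's reads, and these were left out. Genes carry human-style symbols, and were matched by name to mouse genes for coordinates, in GENCODE's annotation of GRCm38. CPM are recovered reads over the library total.

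The 16 CD8 and CD4 libraries of early and normal marrow were grouped by title and fitted together with limma 3.58.1 (R 4.3.3, mean-variance trend, robust) on log2(value + 4), for the 4238 genes that reached a value of 10 in at least 4 libraries. Genes passed at a Benjamini-Hochberg adjusted p under 0.05 over all of them. Fold changes on this scale understate the change of genes with few reads. Alternatives were edgeR 4.0.16, DESeq2 1.42.0 and limma-voom on the recovered reads, other pseudocounts and filters, other sets of libraries, and each library left out. Replicates differed by more than sampling noise, with a chi-square per degree of freedom of at least 1.91. Floors (3 reads over a group) cover counting error only. The procedure was tested on simulated data.

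Members, lists and tests were chosen with earlier results of these data known. Named genes are the 12 with the smallest p in each direction in early marrow and the 6 in each direction for the change between stages (adjusted p under 0.05, absolute log2 difference of at least 1, mean of at least 20 CPM in the highest group), up to 4 genes of each list with the smallest p, and 31 fixed lineage, cytotoxic and checkpoint genes.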

Additional observations from a re-analysis of the deposited data

Results flagged for a closer look

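In 6 of 50 groups of 4 libraries, 1 library lay far from the other 3. Chance gives about 1 in 20 for independent groups, but these share libraries, so no excess over chance can be read from the count. CD8 early 3 accounted for 4 of these: GRN at 2838 CPM, RPL9 at 1139.7 CPM, the plasmacytoid dendritic cell markers at a sum of 2439 CPM and the neutrophil markers at a sum of 117766 CPM. The first 3 were low and the last was high in that library, and S100A8 alone stood at 68633 CPM there, against 4987, 5654 and 6686 CPM in the other CD8 early libraries. CD4 early 4 accounted for the other 2, with GRN low at 3012 CPM and the lung markers high at a sum of 4277 CPM.

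For 12 genes the difference between CD8 and CD4 libraries was itself different in early and in normal marrow (limma, adjusted p of 0.0039 to 0.0078). It was higher in early marrow by 1.89 for CD74, 1.54 for TYROBP, 2.21 for SYK, 2.01 for SPIB, 1.34 for GRN and 1.84 for KLK1 on the log2 scale. It was lower by -1.70 for RPS23, -1.24 for RPS19, -1.504 for RPL9, -1.23 for RPL12, -1.18 for RPS21 and -1.27 for RPL32. The sums of plasmacytoid dendritic cell markers, which hold SPIB itself, and of T cell markers moved with these genes. The part of these cell types in the result was not tested.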

How the results depend on the processing

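CCL5 passed in 31 of 31 alternatives, at 2.28 to 2.73 (limma, edgeR or DESeq2, adjusted p from 3.9e-12 to 0.036). CD8A passed in 23 of 31, at 1.16 to 3.39 (adjusted p from 0.0012 to 0.51). The 12 genes whose difference changed between stages kept their direction in all 30 alternatives and passed in 28 each, failing in the 27-library fit and without the lung libraries. Of 439 alternative values of the 15 fixed genes that did not pass in early marrow, 1 passed (CD4 without CD8 early 2), and 34, of 7 genes, turned sign without passing. No called value turned sign.

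Early calls numbered 5 with DESeq2, 1 with a filter at 30, 7 in the 27-library fit, 1 in a fit of the 8 early libraries, 1 without lung libraries, 1 with thinned normal libraries and 1 to 8 with each library left out. Normal calls numbered 394 with limma-voom, 64 in the 27-library fit, 3 without lung libraries and 112 to 266 with each library left out (112 without CD8 normal 3). Calls of the change between stages numbered 133 with DESeq2, 96 with limma-voom, 98 with a filter at 30, 0 in the 27-library fit, 0 without lung libraries, and 28 to 84 with each library left out. The cause was not tested, save that sets with libraries left out hold fewer of them.

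No pairing by title number was seen: same-numbered deviations correlated above 0.1 in 1 of 4 pairs at each stage. Lung transcripts also enter these deviations, so the check cannot tell whether same-numbered libraries share an animal. With the number as a replicate block, 2, 199 and 36 genes passed. Genes at low levels, among them 9 of 10 inhibitory receptors, did not reach the filter value in enough libraries and were not tested.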

Other observations

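At the late stage, CD8 libraries had 2 replicates at each site and were not part of the comparison. In the metastatic core SPIB stood at 15.7 and 21.8 CPM in CD8 core libraries, and at 273, 34.6 and 237 CPM in CD4 core libraries. IRF8 stood at 386 and 254 CPM in CD8 core and at 755, 165 and 860.3 CPM in CD4 core libraries. IRF8 overlapped between them and SPIB did not. In peripheral marrow TYROBP stood at 3119 and 517 CPM in CD8 libraries and at 818 to 4224 CPM in CD4 libraries. CCL5 did not overlap between the populations at either site, at 2754 and 1224 CPM in CD8 peripheral libraries, against 343 to 754 CPM in CD4 peripheral libraries, and at 1828 and 2540.0 CPM in CD8 core libraries, against 366 to 804 CPM in CD4 core libraries. NKG7 stood at 2385 and 1152 CPM in CD8 core and at 201 to 399 CPM in CD4 core libraries. These values were not tested.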
